A study of Homo sapiens with 15 samples.

Results

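The genes described here are 38 members of cholesterol and fatty acid synthesis, chosen by gene name in TF-1 leukemia cells with base-edited IDH mutations. They are 16 enzymes of the mevalonate and sterol pathway, 4 regulators of the sterol regulatory element binding proteins (SREBPs), 9 genes of sterol transport and export, and 9 genes of fatty acid synthesis. All 38 were found among the 56624 gene symbols of the deposited table, and 36 of them were among the 14881 genes that reached 1 TPM, a length-corrected share of all transcripts, in 3 libraries or more. The sterol exporters ABCA1 and ABCG1 stayed below that level.

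TF-1 is a human erythroleukemia line whose growth depends on a cytokine, usually granulocyte-macrophage colony-stimulating factor (GM-CSF). The 5 groups were TF-1 cells base-edited to IDH1R132H, IDH2R140Q, IDH2R140W or IDH2R172K and the Parental line, with 3 RNA libraries each, and all of them grew in RPMI-1640 with 10% fetal bovine serum. The edited cells received no GM-CSF and Parental cells received 2 ng/ml. Against Parental the mutation and the cytokine cannot be told apart, whereas the edited lines shared 1 medium. The labels do not say whether an edited line is a clone, how many alleles it carries, or whether the libraries came from separate cultures, and the p-values below reflect the spread between libraries, which may be technical.

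The libraries held the transcripts of an early myeloid and erythroid line: CD34 was at 118 to 544 TPM and CD33 at 189 to 270.12 TPM, and 8 of 9 TF-1 markers were at 1 TPM or more in all 15 libraries. The exception was CSF2RA, a GM-CSF receptor chain, which is on 2 lines of the table and is listed at 0 in every library. Several of these markers had different levels in the groups, which were not tested. CD34 averaged 512 TPM in IDH1R132H, 485 in the IDH2R140Q line, 276 in IDH2R140W and 533 in the IDH2R172K line, against 153 TPM in Parental. The erythroid genes HBG2 and CA1 ran lowest in IDH1R132H and IDH2R140Q. HBG2, a fetal globin, averaged 23.98 TPM in IDH1R132H, 6.07 in the IDH2R140Q line, 133 in IDH2R140W and 676 in the IDH2R172K line, against 880.36 TPM in Parental. CA1, a carbonic anhydrase, averaged 10.4, 11.2, 54.9 and 118 TPM in the same order, against 135 TPM in Parental. The 9 markers summed to 1495 to 1522 TPM in IDH1R132H, 1458 to 1474 in IDH2R140Q, 1486 to 1602 in IDH2R140W and 2272 to 2419 in IDH2R172K, against 1935 to 2214 TPM in Parental. Of 13 markers of other cell types, only the keratin KRT18 was at 1 TPM or more in every library, at 443 to 660.03 TPM. CD79A, which is on 2 lines like CSF2RA, was listed at 0 in all, and its absence is not read from that. The T cell gene CD3D ran at 28.05 to 35.3 TPM in IDH1R132H, 0.45 to 2.9 in IDH2R140Q, 7.25 to 10.7 in IDH2R140W and 49.5 to 56.7 in IDH2R172K, against 60.02 to 82.7 TPM in Parental, while its partner CD3E stayed at or below 0.20 TPM. The liver gene ALB reached 13.8 to 20.4 TPM in IDH2R140W and at most 4.66 TPM elsewhere, and the other 8 markers stayed at or below 2.92 TPM. The 13 summed to 675 to 698 TPM in IDH1R132H, 449 to 478 in IDH2R140Q, 487 to 510.28 in IDH2R140W and 533 to 539 in IDH2R172K, against 569.57 to 638 TPM in Parental. The part of these marker shifts in the lipid gene results was not tested. Ribosomal protein genes took 14.98 to 15.3% of all TPM in IDH1R132H, 13.7 to 13.8% in IDH2R140Q, 18.1 to 21.9% in IDH2R140W, 14.7 to 15.04% in IDH2R172K and 16.7 to 21.0% in Parental. IDH2R140W replicate 3 and Parental replicate 2 stood apart from their groups by this share, and counts over all members against Parental are given without both as well. Counts by role and those of other gene lists are given with all libraries only.

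Cells build cholesterol from acetyl-CoA through mevalonate, isoprenoids, squalene and lanosterol, and build fatty acids from acetyl-CoA through malonyl-CoA. Both routes are transcribed under the SREBPs, which the escort protein SCAP carries from the endoplasmic reticulum for cleavage and which INSIG proteins hold back when sterols are plentiful, as they are in serum. SREBF2 mainly drives the cholesterol genes and SREBF1 the fatty acid genes, while the liver X receptors NR1H2 and NR1H3 sense oxysterols and turn on sterol export and SREBF1. Mutant IDH1 and IDH2 reduce 2-oxoglutarate to 2-hydroxyglutarate with NADPH, a cofactor that sterol and fatty acid synthesis also use.

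Levels are given in TPM, a measure per transcript length. Differences are the edited line minus Parental in log2(TPM + 1), unless another pair is named, with a standard error (SE) from the fit across all genes. A gene rose or fell where the adjusted p of limma was under 0.05. The 4 comparisons share the 3 Parental libraries, so a likeness between them is partly fixed by those libraries. The middle gene of all those tested differed by 0.16 in IDH1R132H, 0.23 in the IDH2R140Q line, 0.03 in IDH2R140W and by 0.13 in IDH2R172K. List medians are given beside these values.

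Sterol synthesis transcripts were lowest in IDH2R140W, lower than Parental in IDH2R172K, and near or above Parental in the other edited lines. The 16 enzymes from ACAT2 to DHCR7 summed to 1625 ± 26.2 TPM in IDH1R132H, 1409 ± 37.04 TPM in IDH2R140Q, 889 ± 16.97 TPM in IDH2R140W, 1115 ± 29.6 TPM in IDH2R172K and 1449 ± 69.2 TPM in Parental (SD, n = 3 each). In bulk RNA, fewer cells with a transcript and less of it per cell cannot be told apart. In IDH2R140W 19 of the 36 members tested fell and 4 rose, where 10.7% of all genes fell and 13.3% rose. In IDH2R172K 17 members fell and 6 rose, beside 13.5% and 25.5% of all genes. In IDH2R140Q 10 fell and 8 rose, beside 11.1% and 33.3%, and in IDH1R132H 6 fell and 11 rose, beside 13.7% and 30.1%. The IDH1R132H count of risen members was near the rate over all genes, and its split turned with scaling, to 12 fallen and 5 risen with median ratios and 11 and 7 with quantile normalisation. The shares of all genes in that line moved as well, to 20.6% fallen and 22.8% risen with median ratios. With quantile normalisation they were 21.3% and 22%. The IDH2R140W count of fallen members was above the rate over all genes. Without IDH2R140W replicate 3 and Parental replicate 2, the members that fell numbered 9 in IDH1R132H, 11 in the IDH2R140Q line, 23 in IDH2R140W and 19 in IDH2R172K, and those that rose numbered 11, 9, 3 and 4 in the same order. The shares of all genes called in that fit were not computed, so these counts are not set against a rate over all genes.

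By role, the enzymes made up most of the falls in IDH2R140W: 12 of the 16 fell there and 1, PMVK, rose, with a median of -0.71 against 0.03 over all genes. In IDH2R172K 9 fell and 2 rose, with a median of -0.38 against 0.13 over all genes. The 9 fatty acid genes had a lower median in that line, -0.45, with 5 fallen and 1 risen. In IDH2R140Q 5 of the enzymes fell and 4 rose, with a median of 0.07 against 0.23. In IDH1R132H 2 fell and 7 rose, with a median of 0.24 against 0.16. That split depended on scaling: with median-ratio scaling 5 fell and 2 rose in IDH1R132H, at a median of 0.07 against 0.01, and with quantile normalisation 4 fell and 4 rose. Of all genes, 20.6% fell and 22.8% rose with the first scaling, and 21.3% and 22% with the second. Most differences were smaller than 2-fold: members that rose or fell by at least that much were SC5D and SREBF1 in IDH1R132H and NR1H2, HMGCS1 and MVK in IDH2R140W, with none in the other lines. In IDH2R140Q 7.56% of all genes rose and 2.47% fell that far, and in IDH2R172K 6.36% and 2.96%. For comparison, 7.74% rose and 3.09% fell that far in IDH1R132H, and 2.68% and 2.1% did in IDH2R140W.

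**Figure D1:**
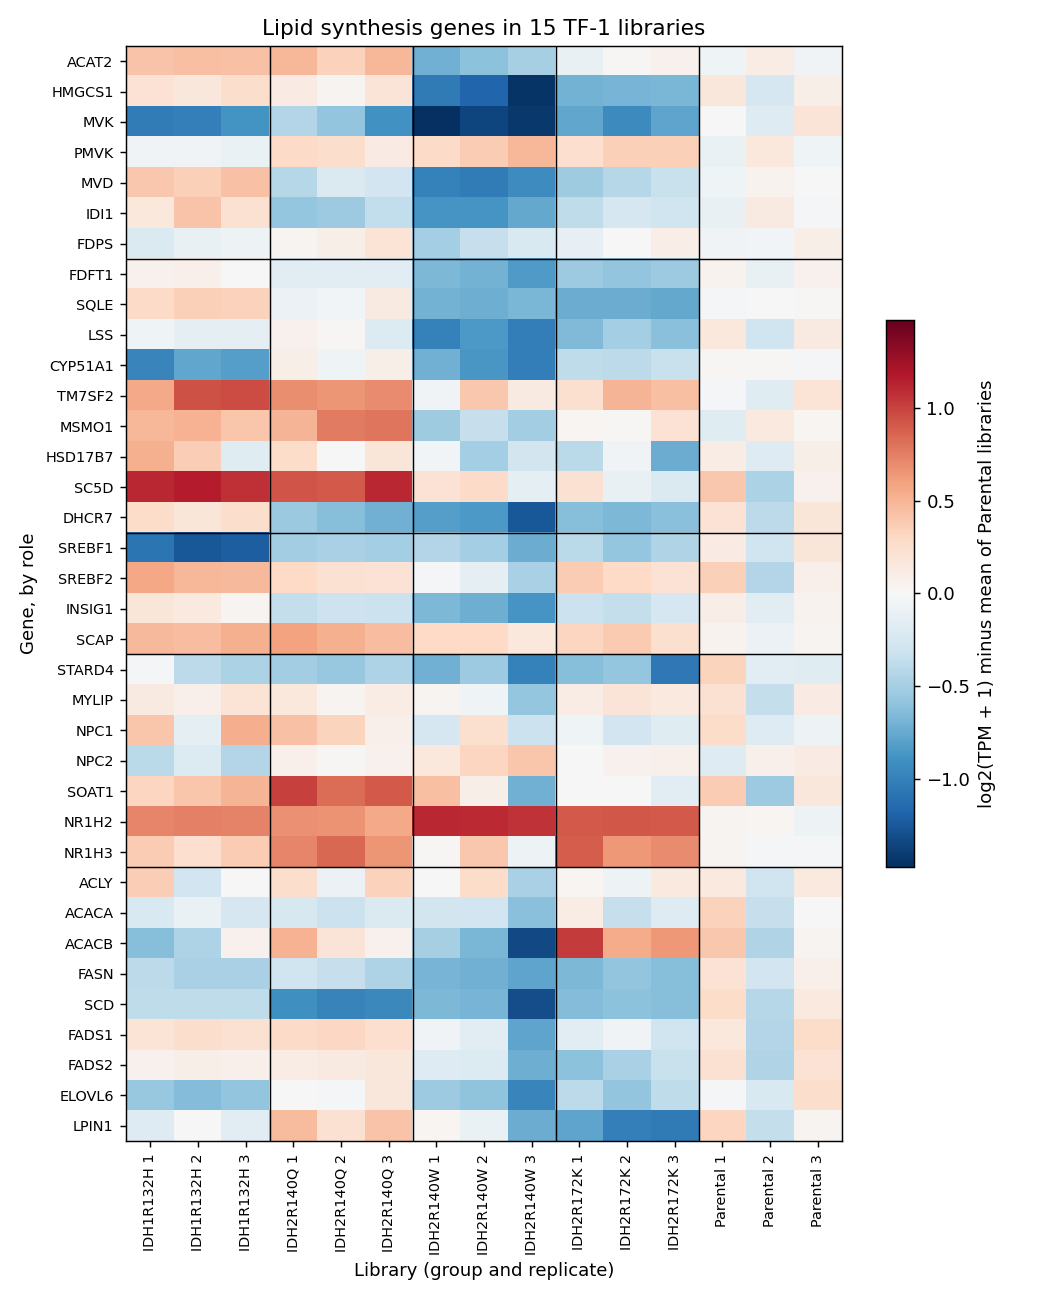
Colour gives each library's log2(TPM + 1) minus the mean of the Parental libraries, for the 36 tested members down the page by role (mevalonate, sterol, regulators, transport, fatty acid) and the 15 libraries across it, edited lines first. MVK, SREBF1 and FASN are blue and NR1H2 and SCAP red in all edited libraries, and most enzymes are deepest blue in IDH2R140W, where HMGCS1 averaged -1.22.

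Early in the mevalonate arm, HMGCS1 fell in IDH2R140W and IDH2R172K. HMGCS1 (chr5:43289395-43313512 of hg38, minus strand), the cytosolic synthase that makes HMG-CoA, had 73.6, 67.2 and 55.1 TPM in IDH2R140W and 93.6, 94.5 and 95.3 TPM in IDH2R172K, against 170.45, 128 and 162 TPM in Parental. Both edited lines lay below every Parental library, IDH2R140W at 42.5% of the Parental mean (log2 difference -1.22 ± 0.11 SE, adjusted p = 2.09e-06) and IDH2R172K at 61.6% (log2 difference -0.68 ± 0.11 SE, adjusted p = 0.000196). In IDH1R132H HMGCS1 had 177, 172 and 183 TPM and in IDH2R140Q 166, 157 and 174 TPM, and neither passed the test (adjusted p = 0.12 and 0.393). Without Parental replicate 1 the IDH1R132H difference passed at adjusted p = 0.0491, within 0.0491 to 0.691 over all alternatives.

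MVK, mevalonate kinase, was the enzyme that fell in all 4 edited lines. The gene (chr12:109573255-109598117 of hg38, plus strand) had 10.4, 10.6 and 11.6 TPM in IDH1R132H, 16.3, 14.6 and 11.6 in IDH2R140Q, 7.40, 8.15 and 7.73 in IDH2R140W and 12.7, 11.2 and 12.6 in IDH2R172K, against 22.2, 19.5 and 25.7 TPM in Parental. No edited library reached the lowest Parental library, and the log2 differences were -0.97, -0.63, -1.41 and -0.83 (adjusted p = 3.66e-05, 0.00139, 2.83e-06 and 0.000181). PMVK, the next kinase of the arm, rose in IDH2R140W to 38.5, 40.95 and 44.5 TPM and in IDH2R172K to 37.4, 40.3 and 40.5 TPM, against 29.3, 35.2 and 30.1 TPM in Parental (log2 differences 0.38 and 0.32, adjusted p = 0.00495 and 0.00988). Scaling the libraries by median ratios put both outside the threshold (adjusted p = 0.0578 and 0.285, within 0.00102 to 0.0844 and 0.000417 to 0.285 over all alternatives).

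MVD, ACAT2 and IDI1 moved in opposite directions between lines. MVD, the decarboxylase that yields isopentenyl pyrophosphate, had 82.7, 79.97 and 84.9 TPM in IDH1R132H, 46.5, 53.8 and 51.6 in IDH2R140Q, 31.04, 30.2 and 32.5 in IDH2R140W and 43.3, 46.8 and 49.6 in IDH2R172K, against 59.9, 65.2 and 63.1 TPM in Parental. It was above every Parental library in IDH1R132H (log2 difference 0.39) and below every one in the 3 IDH2 lines (-0.31, -0.98 and -0.42). All 4 differences passed, at adjusted p = 0.000806, 0.00474, 4.95e-07 and 0.000498. IDI1, the isopentenyl pyrophosphate isomerase, was likewise highest in IDH1R132H and lowest in IDH2R140W, at 199 ± 19.8 TPM in IDH1R132H, 118 ± 9.003 in IDH2R140Q, 92.3 ± 4.14 in IDH2R140W, 133 ± 5.47 in IDH2R172K and 165 ± 14.4 in Parental. Its log2 differences were 0.27, -0.49, -0.83 and -0.31 (adjusted p = 0.0209, 0.00041, 7.54e-06 and 0.0112). ACAT2, the thiolase that starts the arm, had 143, 145 and 145 TPM in IDH1R132H, 150.01, 135 and 149.50 in IDH2R140Q, 65.1, 69.5 and 75.6 in IDH2R140W and 98.5, 108 and 112 in IDH2R172K, against 102, 115 and 103 TPM in Parental. It rose in IDH1R132H and IDH2R140Q (0.43 and 0.44), fell in IDH2R140W (-0.60), and in IDH2R172K overlapped Parental (-0.01, adjusted p = 0.944).

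The rises among these 3 genes were less firm than the falls. With median-ratio scaling the rises of MVD and ACAT2 in IDH1R132H and of ACAT2 in IDH2R140Q did not pass (adjusted p = 0.118, 0.0886 and 0.188, within 0.000438 to 0.118, 3.41e-05 to 0.0886 and 3.54e-05 to 0.188 over all alternatives). The rise of IDI1 in IDH1R132H (adjusted p = 0.0209) was lost without Parental replicate 1 (0.0793), without Parental replicate 3 (0.057) or without IDH1R132H replicate 2 (0.108), within 0.00373 to 0.6 over all alternatives. Scaling lost it as well, with log2 differences of 0.08 with median ratios (adjusted p = 0.6) and 0.17 with quantile normalisation (0.136). The rise of MVD in IDH1R132H did not pass with quantile normalisation either (0.0639). The genes within 5 Mb of IDI1 were themselves high in that line, with a median log2 difference of 0.73 over 15 genes, and their part in the result was not tested. FDPS, farnesyl pyrophosphate synthase, passed against Parental in IDH2R140W alone (145 ± 13.5 TPM, against 185 ± 10.5 TPM, log2 difference -0.35 ± 0.081 SE, adjusted p = 0.00548), and it passed as lower in IDH1R132H with median-ratio scaling (adjusted p = 0.028, within 0.028 to 0.459).

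**Figure D2:**
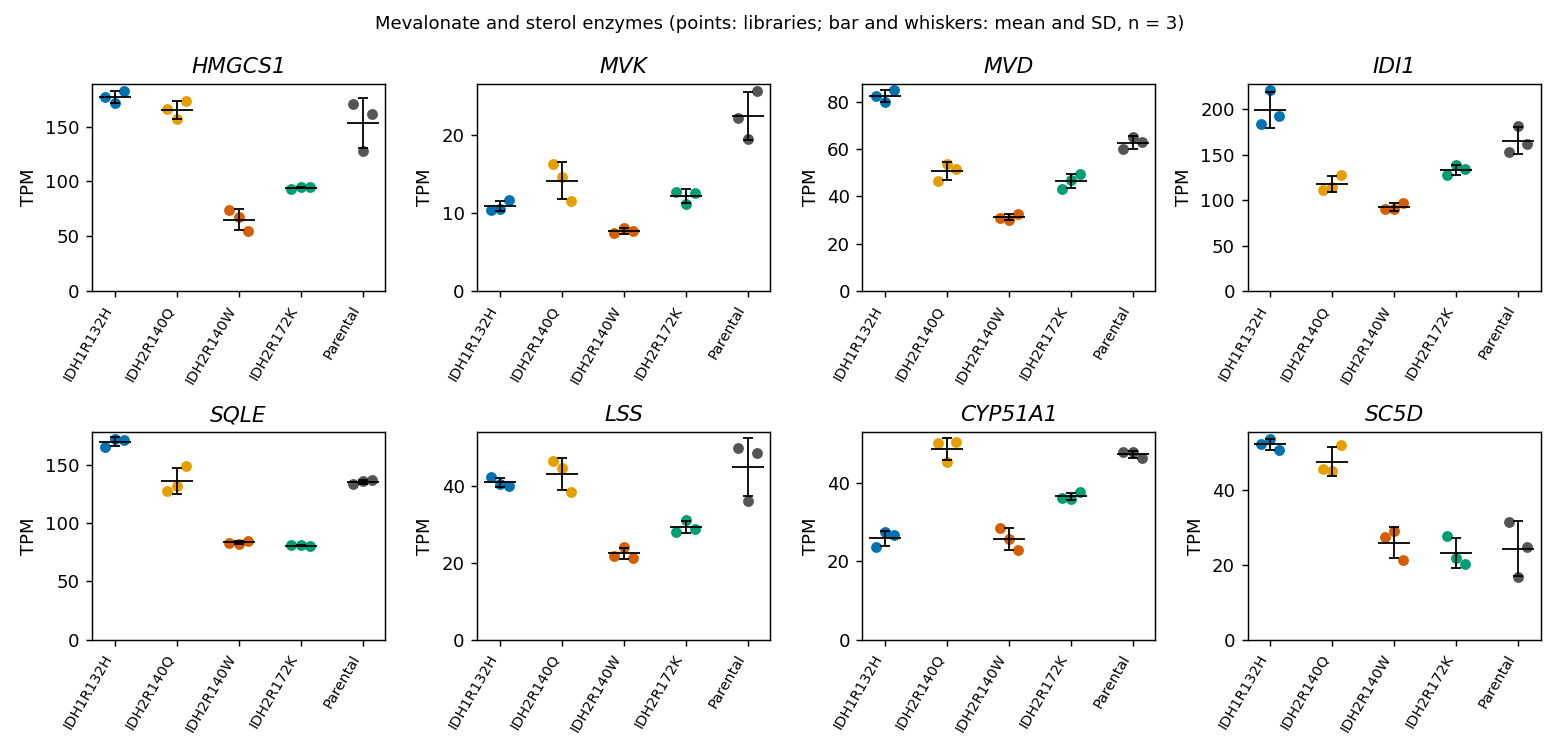
TPM of 8 enzymes (y axes from 0) in each library of the 5 groups (x axes), with points for libraries and a bar with whiskers for the mean and SD (n = 3). HMGCS1, MVD, IDI1 and MVK are lowest in IDH2R140W, CYP51A1 is low in both IDH1R132H and IDH2R140W (25.9 ± 2.01 and 25.8 ± 2.89 TPM), and SC5D is high in IDH1R132H and IDH2R140Q.

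Beyond farnesyl pyrophosphate, the squalene enzymes were again low in IDH2R140W and IDH2R172K. SQLE, the squalene epoxidase, had 166, 173 and 171 TPM in IDH1R132H, 128, 132 and 149 in IDH2R140Q, 83.4, 82.2 and 84.8 in IDH2R140W and 81.02, 81.3 and 80.2 in IDH2R172K, against 134, 136 and 137 TPM in Parental. The libraries of IDH2R140W and IDH2R172K sat close together at about the same level (61.5% and 59.6% of the Parental mean, log2 differences -0.69 and -0.74, adjusted p = 1.51e-06 and 3.63e-07), and the 3 of IDH1R132H lay above every Parental library (0.32, adjusted p = 0.000574). FDFT1, squalene synthase, had 176, 173 and 157 TPM in IDH2R140W and 193, 187 and 193 TPM in IDH2R172K, against 289.54, 261 and 292 TPM in Parental (log2 differences -0.73 and -0.55, adjusted p = 9.14e-07 and 6.46e-06). LSS, lanosterol synthase, fell to 22.5 ± 1.54 TPM in IDH2R140W and 29.4 ± 1.66 TPM in IDH2R172K, against 45.0 ± 7.63 TPM in Parental (-0.96 and -0.59, adjusted p = 3.27e-05 and 0.00109).

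In the other lines these 3 genes stayed closer to Parental. FDFT1 was at 250.11 ± 1.12 TPM in IDH2R140Q, against 281 ± 17.6 TPM in Parental, a log2 difference of -0.16 that passed at adjusted p = 0.0376 but not when Parental replicate 1 or 3 or any 1 IDH2R140Q library was left out (adjusted p = 0.102, 0.125, 0.0883, 0.0758 and 0.0844, within 2.36e-05 to 0.125), nor with a block for the replicate number (0.0504). The rise of SQLE in IDH1R132H did not pass with median-ratio scaling (adjusted p = 0.19, within 0.000472 to 0.19). Without Parental replicate 2, LSS passed as lower in IDH1R132H (log2 difference -0.26, adjusted p = 0.0385, within 0.0187 to 0.842). The genes within 5 Mb of SQLE had a median of -0.27 over 26 genes in IDH2R172K, and those near FDFT1 -0.16 over 13, both below the 0.13 of all genes. Both genes lie on chromosome 8, whose 371 other tested genes had a median of -0.22 in that line. The part of this in the 2 falls was not tested.

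The enzymes that trim lanosterol into cholesterol did not move as 1 block. CYP51A1, the lanosterol demethylase, fell to 23.6, 27.4 and 26.7 TPM in IDH1R132H, 28.6, 25.9 and 22.9 TPM in IDH2R140W and 36.3, 36.1 and 37.7 TPM in IDH2R172K, against 48.1, 47.97 and 46.4 TPM in Parental, the IDH2R140Q level being 50.4, 45.6 and 50.7 TPM. The log2 differences were -0.85, -0.86, -0.36 and, not passing, 0.04 in IDH2R140Q (adjusted p = 3.69e-06, 7.91e-06, 0.00499 and 0.747). Around CYP51A1 the 27 genes within 5 Mb had a median of -0.54 in IDH1R132H, and their part in that fall was not tested. SC5D, the sterol desaturase, went the other way, with 52.5, 53.8 and 50.9 TPM in IDH1R132H and 45.7, 45.1 and 52.2 TPM in IDH2R140Q, against 31.6, 16.8 and 24.8 TPM in Parental. All 6 of those edited libraries exceeded all 3 Parental ones (log2 difference 1.11 ± 0.18 SE, adjusted p = 0.000239 in IDH1R132H, and log2 difference 0.98 ± 0.18 SE, adjusted p = 0.000734 in IDH2R140Q), while IDH2R140W (26.01 ± 4.08 TPM) and IDH2R172K (23.3 ± 3.94 TPM) overlapped Parental.

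MSMO1, the methylsterol monooxygenase that acts after CYP51A1, rose in IDH1R132H and IDH2R140Q and fell in IDH2R140W. It had 20.7, 21.02 and 19.6 TPM in IDH1R132H, 20.9, 25.3 and 25.8 in IDH2R140Q, 9.74, 11.2 and 9.88 in IDH2R140W and 14.8, 14.7 and 16.9 in IDH2R172K, against 12.7, 16.1 and 14.8 TPM in Parental (log2 differences 0.47, 0.69, -0.46 and, not passing, 0.09). IDH2R172K was the line whose libraries overlapped Parental, and the adjusted p-values in the same order were 0.0042, 0.000265, 0.00883 and 0.575. The IDH1R132H rise did not pass with median-ratio scaling (adjusted p = 0.0819, within 0.00172 to 0.175). DHCR7, which reduces the last precursor to cholesterol, fell in the 3 IDH2 lines, to 97.2 ± 5.72 TPM in IDH2R140Q, 76.95 ± 12.4 in IDH2R140W and 96.4 ± 1.52 in IDH2R172K, against 153 ± 33.3 TPM in Parental (-0.63, -0.97 and -0.64, adjusted p = 0.00266, 0.000168 and 0.00261). In IDH1R132H DHCR7 stood at 178 ± 6.08 TPM, with a log2 difference of 0.24 that did not pass (adjusted p = 0.187). TM7SF2, a sterol reductase, rose in IDH1R132H (0.82), IDH2R140Q (0.67) and IDH2R172K (0.40), the last at adjusted p = 0.0383. That call was lost without Parental replicate 1 or 2 (0.0752 and 0.132) or IDH2R172K replicate 2 or 3 (0.12 and 0.1), within 0.0212 to 0.198. It was also lost with median ratios (0.141) and with quantile normalisation (0.198). HSD17B7, a sterol ketoreductase with near-identical pseudogene copies that make its level uncertain, ran at 1.82 to 5.73 TPM and passed against Parental in no line, except as lower in IDH2R172K with quantile normalisation (-0.57, adjusted p = 0.0396, within 0.0396 to 0.471).

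The promoters were searched for the letters of known control elements. RefSeq promoters on GRCh38.p14, running from 250 bases before to 50 bases after each start, were at hand for 33 of the 38 members, and 4 motifs were searched on both strands: the sterol regulatory element TCACNCCAC, the CCAAT box, the E-box CACGTG and the GC box GGGCGG. No motif searched contains another. Only SREBF2 held TCACNCCAC among the members, where 1.13% of 35116 promoters of the same length did. CCAAT, the site bound by NF-Y, a partner of the SREBPs, was in 18 of 33 members and in 10 of 13 sterol pathway enzymes, but in 2 of 8 fatty acid genes, where 34.6% of all promoters held it. The E-box was in 5 members (7.26% of all promoters) and the GC box in 30 members (45.0%). A match is a description of the letters and not a measured binding site, and the window is short. The starts are those of RefSeq and can differ from the gene positions given here, which come from GENCODE. The MVK window begins inside the gene as placed above, and those of IDI1, NR1H2 and FADS2 lie farther from the GENCODE start. The motif counts hold for these windows only. The promoter of SREBF2 is shown for its sterol regulatory element, whose first base lies 133 bases before the start, and those of HMGCS1, MVK, MVD and MSMO1 are shown as sterol pathway genes with several CCAAT boxes, 2, 5, 3 and 4 of them. Each runs 5′ to 3′ on the strand of its gene, SREBF2 at chr22:41832855-41833154 (plus strand), HMGCS1 at chr5:43313363-43313662 (minus strand), MVK at chr12:109573544-109573843 (plus strand), MVD at chr16:88663042-88663341 (minus strand) and MSMO1 at chr4:165327419-165327718 (plus strand), and capitals mark TCACNCCAC and CCAAT in either orientation (ATTGG).

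SREBF2: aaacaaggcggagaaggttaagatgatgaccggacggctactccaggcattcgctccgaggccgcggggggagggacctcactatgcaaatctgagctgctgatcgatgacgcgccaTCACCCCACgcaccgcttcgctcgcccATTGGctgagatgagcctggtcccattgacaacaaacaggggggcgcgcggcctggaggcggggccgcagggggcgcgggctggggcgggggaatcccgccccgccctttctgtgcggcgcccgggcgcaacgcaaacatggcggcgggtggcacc
HMGCS1: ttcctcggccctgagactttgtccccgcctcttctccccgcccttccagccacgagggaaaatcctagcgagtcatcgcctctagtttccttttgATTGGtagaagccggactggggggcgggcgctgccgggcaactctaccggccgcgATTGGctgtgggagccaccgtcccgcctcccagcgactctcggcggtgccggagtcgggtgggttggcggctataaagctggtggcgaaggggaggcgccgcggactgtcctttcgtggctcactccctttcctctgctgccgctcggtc
MVK: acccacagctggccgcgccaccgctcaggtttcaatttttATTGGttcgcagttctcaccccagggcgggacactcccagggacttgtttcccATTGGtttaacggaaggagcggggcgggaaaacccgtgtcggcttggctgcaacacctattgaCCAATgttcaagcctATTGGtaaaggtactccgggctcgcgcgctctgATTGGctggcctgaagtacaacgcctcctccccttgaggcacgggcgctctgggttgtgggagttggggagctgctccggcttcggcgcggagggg
MVD: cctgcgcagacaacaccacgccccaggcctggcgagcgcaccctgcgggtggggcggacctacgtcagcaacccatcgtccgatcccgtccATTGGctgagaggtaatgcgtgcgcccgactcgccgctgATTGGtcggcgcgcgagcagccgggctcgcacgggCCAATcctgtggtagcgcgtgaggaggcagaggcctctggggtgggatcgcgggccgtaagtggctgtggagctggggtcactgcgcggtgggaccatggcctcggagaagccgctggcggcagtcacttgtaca
MSMO1: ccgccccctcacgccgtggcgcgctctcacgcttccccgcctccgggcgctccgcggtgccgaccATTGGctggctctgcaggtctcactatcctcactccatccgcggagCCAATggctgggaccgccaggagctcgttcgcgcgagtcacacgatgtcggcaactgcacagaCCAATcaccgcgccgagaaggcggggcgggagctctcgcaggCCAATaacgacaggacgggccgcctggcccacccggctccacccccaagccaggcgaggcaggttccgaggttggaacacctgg

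The 4 enzymes shown did not share a direction: MVK fell in all 4 edited lines, HMGCS1 in IDH2R140W and IDH2R172K, and MVD and MSMO1 rose in IDH1R132H and fell in IDH2R140W.

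Among the regulators, SREBF1 fell in every edited line and SCAP rose in every one. SREBF1 (chr17:17810399-17837002 of hg38, minus strand), the SREBP gene tied to fatty acid synthesis, had 81.5, 72.2 and 74.3 TPM in IDH1R132H, 121, 124 and 122 in IDH2R140Q, 128, 122 and 104 in IDH2R140W and 131, 116 and 127 in IDH2R172K, against 188, 141 and 196 TPM in Parental. The lowest Parental library stood above all 12 edited ones, and IDH1R132H was lowest, at 43.5% of the Parental mean (log2 difference -1.18 ± 0.11 SE, adjusted p = 1.68e-06). The falls in the other lines were -0.50 in IDH2R140Q, -0.55 in IDH2R140W and -0.47 in IDH2R172K (adjusted p = 0.00286, 0.00244 and 0.00457). SCAP (chr3:47413694-47477126 of hg38, minus strand), the escort protein of the SREBPs, had 75.7, 74.2 and 77.6 TPM in IDH1R132H, 81.8, 78.2 and 74.1 in IDH2R140Q, 66.5, 66.1 and 60.3 in IDH2R140W and 67.4, 70.97 and 63.7 in IDH2R172K, against 55.8, 50.6 and 55.4 TPM in Parental. Again the groups did not overlap (0.49, 0.52, 0.25 and 0.32, adjusted p = 7.25e-05, 4.26e-05, 0.0183 and 0.00263). The smallest of these, in IDH2R140W, did not pass without Parental replicate 2, IDH2R140W replicate 1 or IDH2R140W replicate 2 (adjusted p = 0.0507, 0.0682 and 0.0676, within 0.00728 to 0.134). Near SCAP, 125 genes had a median of 0.48 in IDH2R140Q, and the 655 other tested genes of chromosome 3 had 0.33. Their part was not tested.

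INSIG1, which retains SCAP in the endoplasmic reticulum and is itself an SREBP target, fell in the 3 IDH2 lines, where SCAP rose. It had 81.2, 79.8 and 73.7 TPM in IDH1R132H, 56.2, 57.95 and 57.4 in IDH2R140Q, 44.97, 43.3 and 38.9 in IDH2R140W and 57.6, 56.2 and 60.6 in IDH2R172K, against 76.8, 64.7 and 74.8 TPM in Parental. The 3 IDH2 lines were below every Parental library (-0.33, -0.75 and -0.30, adjusted p = 0.00458, 1.03e-05 and 0.00793), and IDH1R132H overlapped them (0.12, adjusted p = 0.246). SREBF2, the SREBP gene tied to cholesterol synthesis, had 98.05, 92.4 and 91.5 TPM in IDH1R132H, 80.6, 76.8 and 76.3 in IDH2R140Q, 64.9, 59.4 and 46.6 in IDH2R140W and 85.05, 80.5 and 76.2 in IDH2R172K, against 84.1, 48.2 and 69.1 TPM in Parental, the group with the widest range. It rose in IDH1R132H (log2 difference 0.51 ± 0.16 SE, adjusted p = 0.0168), a call lost without Parental replicate 2 (0.0624) or IDH1R132H replicate 1 (0.0543), within 0.00184 to 0.0708 over all alternatives. In IDH2R140Q, IDH2R140W and IDH2R172K it did not pass (log2 differences 0.25, -0.21 and 0.29, adjusted p = 0.22, 0.383 and 0.155). Leaving out Parental replicate 1 made it pass as higher in IDH2R140Q and IDH2R172K (0.0291 and 0.0201), while leaving out Parental replicate 2 made it pass as lower in IDH2R140W (0.0178), within 0.0291 to 0.969, 0.0201 to 0.651 and 0.0178 to 0.904.

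**Figure D3:**
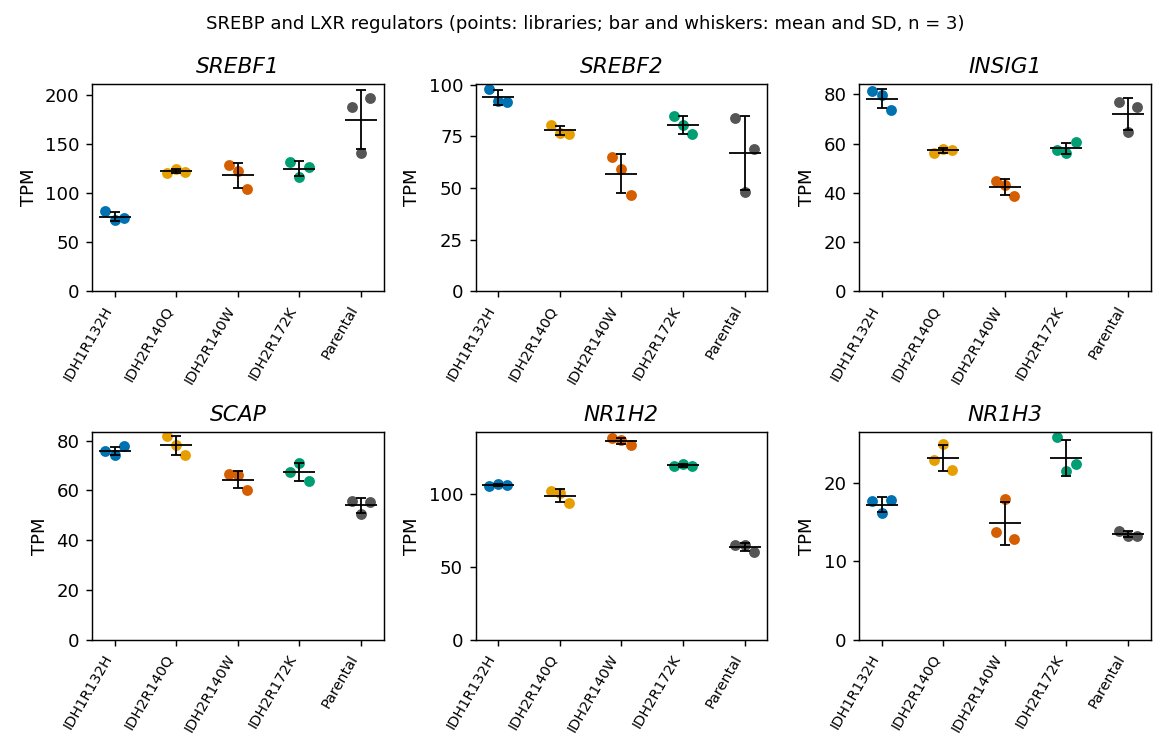
TPM of the 4 SREBP regulators and the 2 liver X receptors (y axes from 0) in each library of the 5 groups (x axes), with points for libraries and a bar with whiskers for the mean and SD (n = 3). All edited libraries lie below Parental for SREBF1 and above it for SCAP and NR1H2, and SREBF2 in Parental spreads from 48.2 to 84.1 TPM.

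In sterol transport and export, the liver X receptor NR1H2 rose in all 4 edited lines. The gene (chr19:50329653-50382982 of hg38, plus strand) had 105, 107 and 106 TPM in IDH1R132H, 102, 101 and 93.8 in IDH2R140Q, 138, 137 and 134 in IDH2R140W and 119, 120.29 and 119 in IDH2R172K, against 64.9, 64.8 and 60.3 TPM in Parental. Every edited library was above every Parental one, with IDH2R140W highest at 215% of the Parental mean (log2 difference 1.09 ± 0.054 SE, adjusted p = 7.8e-09). The other differences were 0.73 in IDH1R132H, 0.63 in IDH2R140Q and 0.91 in IDH2R172K (adjusted p = 1.29e-07, 7.19e-07 and 2.39e-08). Within 5 Mb of NR1H2 lie 196 tested genes, whose medians were 0.26 in IDH1R132H, 0.18 in the IDH2R140Q line, 0.07 in IDH2R140W and 0.34 in IDH2R172K, and their part was not tested. NR1H3, the second liver X receptor, had 22.9, 25.03 and 21.7 TPM in IDH2R140Q and 25.8, 21.5 and 22.4 TPM in IDH2R172K, against 13.9, 13.3 and 13.2 TPM in Parental, both groups apart from it (0.74 and 0.74, adjusted p = 0.000216 and 0.000225). Its rise in IDH1R132H (0.33, adjusted p = 0.0359) was lost without any 1 Parental library, without IDH1R132H replicate 1 or without IDH1R132H replicate 3 (adjusted p = 0.0502, 0.0732, 0.0814, 0.0959 and 0.0986, within 0.031 to 0.464). Scaling lost that rise too (0.274 with median ratios and 0.464 with quantile normalisation). In IDH2R140W NR1H3 was at 14.8 ± 2.79 TPM (0.12, adjusted p = 0.55).

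The exporters that these receptors control stayed near 0. ABCA1 was at 0.12 to 0.41 TPM in the 12 edited libraries and at 0.01 to 0.02 TPM in the Parental ones, and ABCG1 was listed at 0 in every library but IDH2R140Q replicate 2, at 0.2 TPM. Neither was tested. MYLIP, a receptor-induced ubiquitin ligase that lowers lipoprotein uptake, ran at 16.2 to 28.98 TPM and passed in no line. NPC1, the lysosomal cholesterol exporter, ran at 12.6 to 23.7 TPM and passed in none either. NPC2, its soluble partner, fell in IDH1R132H (43.3, 49.8 and 42.2 TPM, against 49.9, 60.2 and 62.3 TPM in Parental, log2 difference -0.34 ± 0.094 SE, adjusted p = 0.00952) and passed as higher in IDH2R140W (63.95, 71.2 and 76.4 TPM, log2 difference 0.29 ± 0.094 SE, adjusted p = 0.0363). The IDH2R140W call was lost without Parental replicate 1, IDH2R140W replicate 2 or IDH2R140W replicate 3 (adjusted p = 0.143, 0.0942 and 0.104, within 0.0239 to 0.181). Median ratios (0.165) and quantile normalisation (0.0934) lost it too.

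STARD4, a cytosolic sterol carrier and SREBP target, fell in the 3 IDH2 lines, to 9.37, 9.04 and 9.76 TPM in IDH2R140Q, 8.09, 9.21 and 6.39 in IDH2R140W and 8.58, 8.99 and 6.11 in IDH2R172K, against 17.6, 12.3 and 12.1 TPM in Parental. All 9 IDH2 libraries were below all 3 Parental ones (-0.51, -0.75 and -0.75, adjusted p = 0.0351, 0.00818 and 0.00493). The IDH2R140Q call was lost without Parental replicate 1 or any 1 IDH2R140Q library (adjusted p = 0.143, 0.0775, 0.0888 and 0.0644, within 0.0011 to 0.143). In IDH1R132H STARD4 passed as lower with either scaling (adjusted p = 0.0347 and 0.0208, within 0.0208 to 0.607). SOAT1, which esterifies cholesterol for storage, rose in IDH2R140Q, with 33.8, 29.5 and 31.3 TPM, against 21.4, 10.9 and 18.4 TPM in Parental (log2 difference 0.91 ± 0.25 SE, adjusted p = 0.00953). In the other lines SOAT1 did not pass, at 22.01 ± 1.48 TPM in IDH1R132H, 16.5 ± 6.49 in IDH2R140W and 15.7 ± 1.04 in IDH2R172K. Without Parental replicate 2 and IDH2R140W replicate 3 it passed as lower in IDH2R172K (-0.32, adjusted p = 0.0386, within 0.0386 to 1).

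In fatty acid synthesis, FASN fell in all 4 edited lines and 1 member rose in 1 line. The 9 genes summed to 1073 ± 6.32 TPM in IDH1R132H, 1079 ± 11.02 TPM in IDH2R140Q, 832 ± 127 TPM in IDH2R140W, 879 ± 18.7 TPM in IDH2R172K and 1283 ± 265 TPM in Parental (SD, n = 3 each), and Parental replicate 2 was low among its group, at 979 TPM beside 1471 and 1398 TPM. Of the 9, 2 fell and none rose in IDH1R132H, 2 fell and none rose in IDH2R140Q, 4 fell and none rose in IDH2R140W, and 5 fell and 1 rose in IDH2R172K. Over all genes 13.7%, 11.1%, 10.7% and 13.5% fell and 30.1%, 33.3%, 13.3% and 25.5% rose in the same order. With median-ratio scaling 4, 3, 6 and 5 of the 9 fell and none rose. Under that scaling 20.6%, 19.5%, 12.8% and 19.2% of all genes fell and 22.8%, 20.9%, 13.1% and 19.7% rose. With TPM as deposited, the medians of the 9 were -0.19, 0.14, -0.39 and -0.45 in that order, against 0.16, 0.23, 0.03 and 0.13 over all genes. FASN (chr17:82078333-82098332 of hg38, minus strand), the fatty acid synthase, had 324, 305 and 305 TPM in IDH1R132H, 345, 336 and 310.05 in IDH2R140Q, 265, 259.72 and 248 in IDH2R140W and 268, 282 and 274 in IDH2R172K, against 492, 348 and 448 TPM in Parental. The lowest Parental library, replicate 2, lay just above the highest IDH2R140Q library, and the other lines were lower still (-0.45, -0.36, -0.72 and -0.63, adjusted p = 0.00184, 0.00765, 8.35e-05 and 0.000147).

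SCD, the stearoyl-CoA desaturase, had 219, 219 and 219.89 TPM in IDH1R132H, 151, 143 and 147 in IDH2R140Q, 179, 176 and 114 in IDH2R140W and 182, 187 and 184 in IDH2R172K, against 344, 213 and 314 TPM in Parental. It fell in the 3 IDH2 lines (-0.95, -0.89 and -0.62, adjusted p = 0.000464, 0.00142 and 0.00929). In IDH1R132H the log2 difference of -0.37 did not pass (adjusted p = 0.0874). It passed without Parental replicate 2 (-0.58, adjusted p = 0.00511, within 3.12e-07 to 0.291). Near SCD, 80 genes had a median of -0.29 in IDH2R140Q, and the 417 other tested genes of chromosome 10 had -0.16. Their part was not tested. ELOVL6, which extends palmitate, fell in IDH1R132H (54.1 ± 1.65 TPM), IDH2R140W (50.4 ± 8.10) and IDH2R172K (59.9 ± 4.82), against 82.8 ± 14.5 TPM in Parental, by log2 differences of -0.59, -0.70 and -0.45 (adjusted p = 0.00203, 0.00113 and 0.0133). The IDH2R172K call was lost without Parental replicate 3 or IDH2R172K replicate 2 (adjusted p = 0.0647 and 0.059, within 0.000282 to 0.0647). Near ELOVL6, 25 genes had medians of -0.101 in IDH1R132H, -0.012 in IDH2R140W and -0.224 in IDH2R172K. The 385 other tested genes of chromosome 4 had 0.155, 0.002 and 0.084 in that order, and the part of the neighbours was not tested. LPIN1, a phosphatidate phosphatase, fell in IDH2R172K, with 10.8, 9.02 and 8.76 TPM, against 23.98, 14.8 and 19.7 TPM in Parental (log2 difference -0.94 ± 0.19 SE, adjusted p = 0.00154). It passed in no other line, except as higher in IDH2R140Q without Parental replicate 1 (adjusted p = 0.0486, within 0.0486 to 0.583). The 28 genes within 5 Mb of it had a median of -0.50 in IDH2R172K, and their part was not tested.

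The 2 acetyl-CoA carboxylases differed. ACACA, the cytosolic enzyme that makes malonyl-CoA for synthesis, ran at 27.9 to 54.95 TPM and passed against Parental in no line with TPM as deposited. It passed as lower in IDH1R132H, IDH2R140Q and IDH2R140W with median-ratio scaling (adjusted p = 0.0257, 0.00553 and 0.0191), with quantile normalisation (0.0224, 0.00531 and 0.0247) and without Parental replicate 2 and IDH2R140W replicate 3 (0.0296, 0.0135 and 0.0271). Without Parental replicate 2 alone ACACA passed in IDH2R140Q and IDH2R140W (adjusted p = 0.0323 and 0.0123), within 0.0224 to 0.922 in IDH1R132H, 0.00531 to 0.658 in IDH2R140Q and 0.0123 to 0.327 in IDH2R140W over all alternatives. ACACB, the form at mitochondria that restrains fatty acid oxidation, had 4.92, 4.19 and 2.30 TPM in IDH2R140W and 15.98, 11.1 and 11.9 TPM in IDH2R172K, against 9.91, 5.10 and 7.53 TPM in Parental. It passed as lower in IDH2R140W (log2 difference -0.83 ± 0.26 SE, adjusted p = 0.0339) and as higher in IDH2R172K (log2 difference 0.74 ± 0.26 SE, adjusted p = 0.0387), neither group overlapping Parental. Both calls rested on single libraries. The IDH2R140W one was lost without Parental replicate 1 or 3 or IDH2R140W replicate 2 or 3 (adjusted p = 0.127, 0.0823, 0.0533 and 0.116, within 0.00885 to 0.147). The IDH2R172K one was lost without Parental replicate 2 or 3 or IDH2R172K replicate 1 or 3 (0.156, 0.0689, 0.139 and 0.0641, within 0.0174 to 0.156). With median ratios and with quantile normalisation it did not pass either (0.0527 and 0.055). FADS2, the rate-limiting desaturase of polyunsaturated fatty acids, fell in IDH2R172K (233, 254 and 281 TPM, against 414, 260.06 and 411 TPM in Parental, log2 difference -0.47 ± 0.16 SE, adjusted p = 0.0341), where its libraries overlapped Parental replicate 2. That call was lost without Parental replicate 1 or 3 or IDH2R172K replicate 1 or 2 (adjusted p = 0.12, 0.128, 0.112 and 0.0763, within 1.23e-06 to 0.128). Without Parental replicate 2, both FADS2 and its partner FADS1 passed as lower in IDH2R140W (0.00338 and 0.023, within 0.000348 to 0.366 and 0.00815 to 0.652). Without IDH2R140W replicate 3 as well, FADS1 also passed as lower in IDH2R172K (0.000888, within 0.000888 to 0.918). ACLY, the citrate lyase that supplies cytosolic acetyl-CoA, is on 2 lines of the table that sum to 0.27 to 1.27 TPM. The 6 further lipid genes on 2 lines were at 0 or nearly so as well: NSDHL, EBP, SLC25A1, MLXIPL and TMEM97 in all libraries, and LPCAT3 at up to 0.4 TPM. NSDHL and EBP do steps of cholesterol synthesis, so such a value may be a failed estimate, and the level of ACLY is not read here although it stays in the counts.

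**Figure D4:**
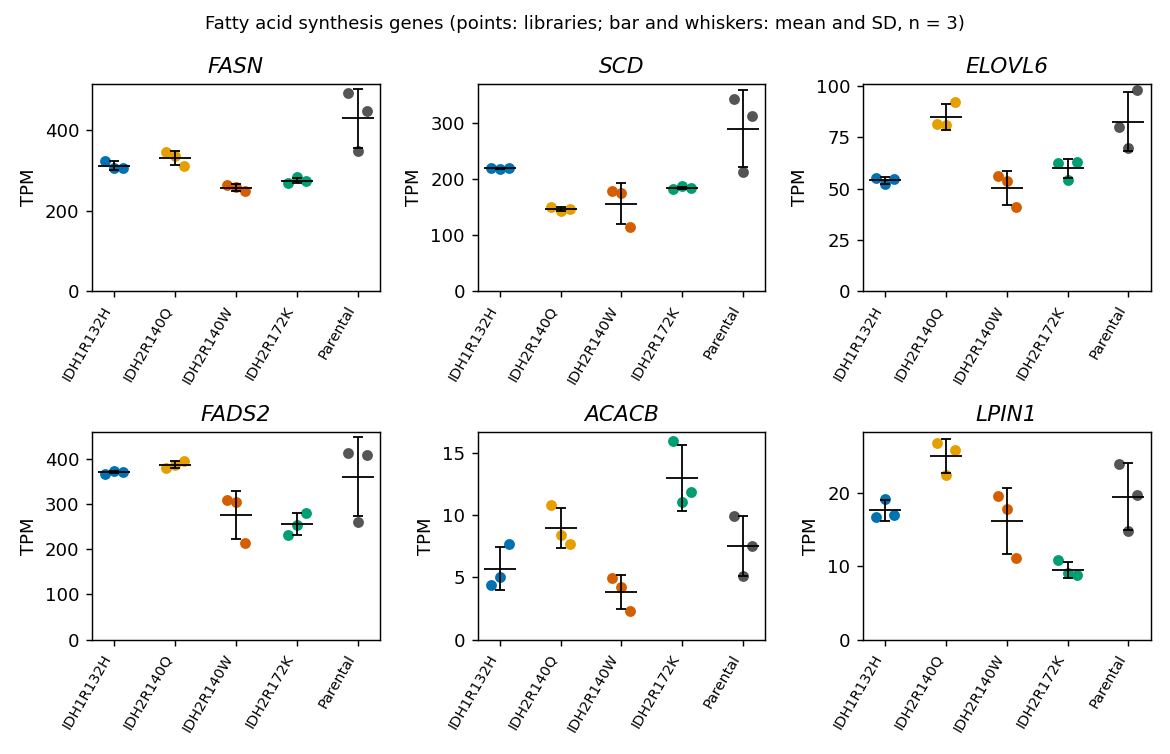
TPM of 6 fatty acid genes (y axes from 0) in each library of the 5 groups (x axes), with points for libraries and a bar with whiskers for the mean and SD (n = 3). All edited libraries lie below Parental for FASN, LPIN1 is lowest in IDH2R172K (9.52 ± 1.10 TPM), and Parental replicate 2 is the lowest of its group in every panel.

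The edited lines, which shared their medium, also differed among themselves. A test over the 4 edited lines together passed for 31 of the 36 members, where 57.3% of all genes passed. STARD4, MYLIP, NPC1, ACLY and ACACA did not pass. The smallest p-values among members belonged to SQLE, MVD, ACAT2, HMGCS1, FDFT1, IDI1, CYP51A1 and INSIG1, and 7 of these 8 are pathway enzymes. IDH2R140W and IDH2R140Q change the same residue, and the members separated them: 24 of 36 were lower in IDH2R140W and 1, NR1H2, was higher, beside 25% and 7.91% of all genes. Of the 16 enzymes 13 were lower in IDH2R140W than in IDH2R140Q and none higher, led by HMGCS1 (log2 difference -1.34 ± 0.11 SE, adjusted p = 6.68e-07), MSMO1 (-1.15) and ACAT2 (-1.04). All genes were shifted down in this pair, with a median of -0.19, beside -0.49 for the members and -0.69 for the enzymes. Against IDH1R132H, 20 members were lower and 4 higher in IDH2R140W, beside 23.7% and 11.9% of all genes, and HMGCS1 (-1.44), MVD (-1.37) and DHCR7 (-1.21) had the 3 lowest values there. The median over all genes was -0.12 in that pair, beside -0.46 for the members and -0.88 for the enzymes.

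IDH2R172K had an enzyme sum between those of IDH2R140W and IDH2R140Q. Against IDH2R140Q 13 members were lower and 1 higher in IDH2R172K (all genes: 19.7% and 11.4%), and against IDH1R132H 15 were lower and 7 higher (18.3% and 14.2%). The members' medians were -0.22 and -0.39, against -0.08 and -0.03 over all genes. Against IDH2R140W, 14 were higher and 2 lower (19.2% and 12% of all genes), and 10 of the 16 enzymes were higher and none lower. The members' median against IDH2R140W was 0.24, beside 0.10 over all genes. SQLE did not pass between these 2 lines (-0.05, adjusted p = 0.599), and neither did PMVK, TM7SF2, HSD17B7, SC5D and DHCR7. The means of SQLE, PMVK, HSD17B7 and SC5D were lower in IDH2R172K than in IDH2R140W. IDI1 averaged 133 TPM in IDH2R172K, above the 118 TPM of IDH2R140Q. IDH2R140Q and IDH1R132H differed in 7 members that were higher and 7 that were lower in IDH2R140Q (all genes: 16.4% and 12.1%). Lower there were MVD, IDI1, FDFT1, SQLE, DHCR7, INSIG1, SCD, and higher were PMVK, FDPS, CYP51A1, SREBF1, NPC2, NR1H3, ELOVL6. For CYP51A1 this pair differed by 0.89 and for SREBF1 by 0.68, while MVD was -0.70 and DHCR7 -0.87 (log2, IDH2R140Q minus IDH1R132H).

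**Figure D5:**
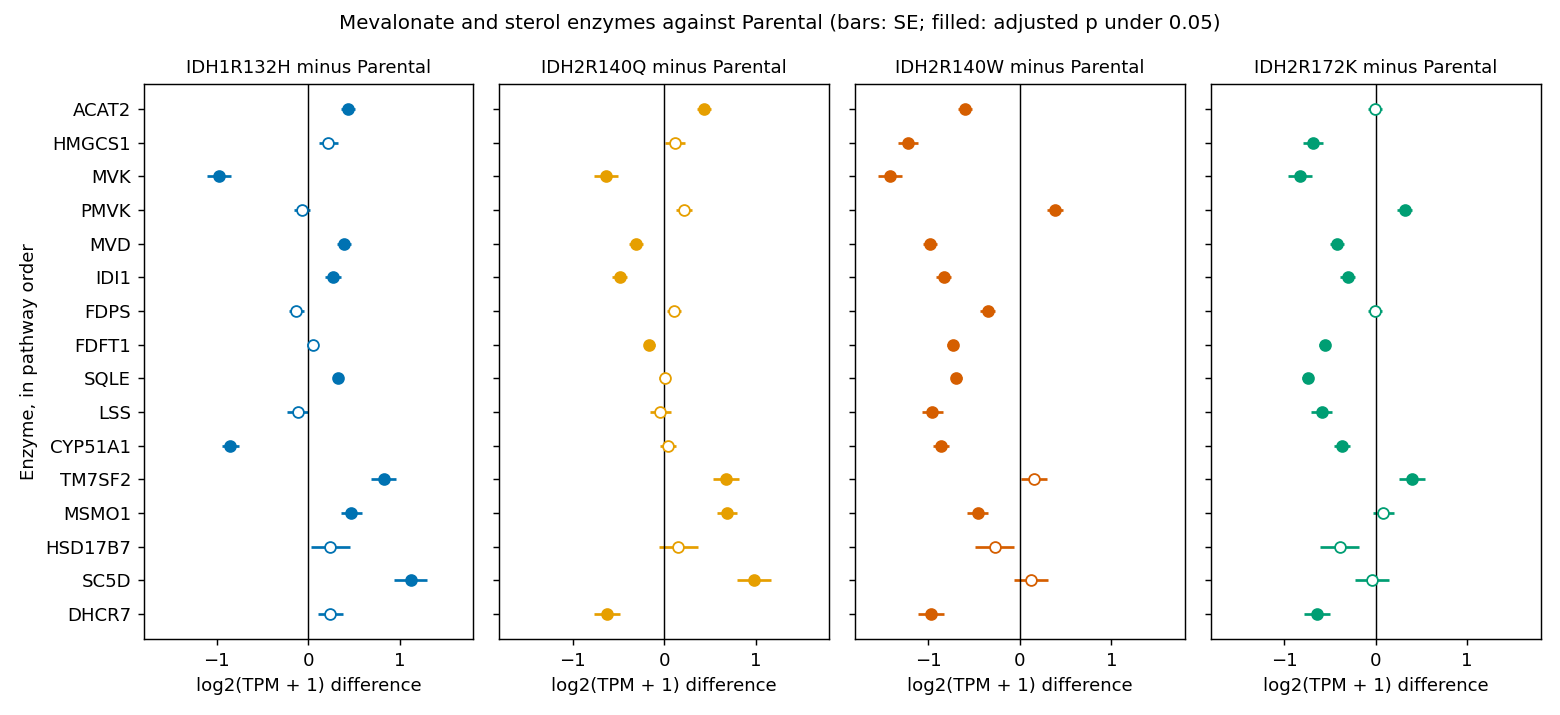
Log2(TPM + 1) difference (x axes) of the 16 enzymes in pathway order down the page, for each edited line minus Parental, with SE bars and filled points where the adjusted p of limma was under 0.05. The points of IDH2R140W lie furthest left, 12 of them filled below 0, and those of IDH1R132H lie on both sides of 0.

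The levels of 12 mitosis genes, a sign of proliferation, were read beside the enzymes. They summed to 2443 ± 20.4 TPM in IDH1R132H, 2094 ± 33.4 TPM in IDH2R140Q, 1923 ± 24.1 TPM in IDH2R140W, 2497 ± 5.12 TPM in IDH2R172K and 2302 ± 54.2 TPM in Parental (SD, n = 3 each). Of the 12, 3 rose and 1 fell in IDH1R132H, 2 rose and 5 fell in IDH2R140Q, none rose and 5 fell in IDH2R140W, and 4 rose and 1 fell in IDH2R172K. The shares of all genes that rose in those lines were 30.1%, 33.3%, 13.3% and 25.5%, and those that fell 13.7%, 11.1%, 10.7% and 13.5%. The mitosis genes' medians were 0.01, -0.12, -0.24 and 0.14 in the same order, against 0.16, 0.23, 0.03 and 0.13 over all genes. The sum was lowest in IDH2R140W, like the enzyme sum, but above Parental in IDH2R172K, where the enzyme sum was below it. The part of proliferation in the enzyme levels was not tested.

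A further 52 lipid genes, of which 42 were tested, moved in both directions. In IDH1R132H 17 rose and 5 fell, in IDH2R140Q 19 and 3, in IDH2R140W 7 and 7, and in IDH2R172K 9 and 8. Over all genes, 30.1% rose and 13.7% fell in IDH1R132H, 33.3% and 11.1% in IDH2R140Q, 13.3% and 10.7% in IDH2R140W, and 25.5% and 13.5% in IDH2R172K. Their medians were 0.13, 0.34, 0.05 and 0.10, against 0.16, 0.23, 0.03 and 0.13 over all genes. ELOVL7, an elongase of saturated fatty acids, rose in every edited line, with 12.1, 11.4 and 15.3 TPM in IDH1R132H, 24.5, 17.7 and 19.9 in IDH2R140Q, 8.70, 12.5 and 8.88 in IDH2R140W and 9.10, 8.34 and 10.2 in IDH2R172K, against 3.59, 2.72 and 4.08 TPM in Parental. Every edited library was above the Parental ones (1.64, 2.28, 1.30 and 1.20, adjusted p = 4.06e-06, 2.13e-07, 8e-05 and 8.34e-05). INSIG2, the SREBP inhibitor that is not itself an SREBP target, rose in IDH1R132H to 11.04, 10.8 and 7.96 TPM, in IDH2R140Q to 19.9, 15.6 and 16.5 TPM and in IDH2R140W to 8.49, 9.64 and 11.7 TPM, against 3.90, 5.19 and 4.29 TPM in Parental (0.99, 1.75 and 1.00, adjusted p = 0.00014, 9.05e-07 and 0.000285). In IDH2R172K it differed by 0.28 (adjusted p = 0.167). NFYA, the regulatory subunit of NF-Y, rose in IDH1R132H to 95.8, 98.8 and 96.0 TPM, in IDH2R140Q to 79.1, 77.5 and 83.04 TPM and in IDH2R172K to 78.8, 83.8 and 81.2 TPM, against 46.9, 30.7 and 44.5 TPM in Parental (1.25, 0.98 and 1.00, adjusted p = 3.44e-05, 0.000328 and 0.000282). In IDH2R140W it differed by 0.35 (adjusted p = 0.148).

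ME1, malic enzyme, which makes NADPH for synthesis, fell in IDH2R140W to 49.5, 51.7 and 47.5 TPM and in IDH2R172K to 28.9, 31.1 and 32.4 TPM, and rose in IDH2R140Q to 93.05, 91.5 and 99.8 TPM, against 81.4, 84.8 and 81.5 TPM in Parental. Its log2 differences were -0.73, -1.40 and 0.20 (adjusted p = 2.09e-06, 1.6e-09 and 0.0243), and -0.01, not passing, in IDH1R132H. MID1IP1, which activates acetyl-CoA carboxylase, fell in all 4 lines (-0.34 in IDH1R132H, -0.35 in the IDH2R140Q line, -0.60 in IDH2R140W and -0.68 in IDH2R172K, adjusted p = 0.00409, 0.00355, 9.72e-05 and 1.87e-05). The acyl-CoA synthetase ACSL1 rose in IDH1R132H, IDH2R140Q and IDH2R140W (0.53, 0.89 and 0.57) and fell in IDH2R172K (-0.57), with adjusted p = 0.00178, 2.99e-05, 0.00216 and 0.00134. Its relative ACSL3 fell in IDH1R132H (-0.46), IDH2R140W (-0.49) and IDH2R172K (-0.38), with -0.12, not passing, in IDH2R140Q. ACAT1, the mitochondrial thiolase, fell in the same 3 lines (-0.87, -0.73 and -0.60), with -0.23, not passing, in IDH2R140Q. ELOVL1, an elongase of very long chains, rose in all 4 lines (0.67, 0.55, 0.37 and 0.50, from IDH1R132H to IDH2R172K in the order used above). STARD3, an endosomal sterol carrier, also rose in all 4 (0.50, 0.36, 0.46 and 0.62 in that order). LBR, whose sterol reductase domain does the same step as TM7SF2, fell in IDH1R132H, IDH2R140Q and IDH2R140W (-0.45, -0.53 and -0.60, adjusted p = 0.0416, 0.0188 and 0.0168), with -0.26, not passing, in IDH2R172K. MECR, of mitochondrial fatty acid synthesis, fell in IDH1R132H, IDH2R140Q and IDH2R172K (-0.38, -0.42 and -0.59), with -0.12, not passing, in IDH2R140W.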

How the data were processed

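Poly(A) RNA of 15 TF-1 libraries, 3 in each of 5 groups, was sequenced from directional libraries, per the labels' protocols. The authors deposited 1 table of TPM per gene symbol. STAR 2.7.3, HTSeq, RSEM, DESeq2 and the build hg38 are named in the submitters' processing notes, with no role given, and DESeq2 was not used here. The table holds no counts, so depth is unknown and no counting interval is given. Of 63568 lines, 6 whose symbols had become dates were left out, and lines of the same symbol were summed (2985 symbols). Within a group, libraries correlated at r = 0.974 to 0.990 across genes.

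The 14881 genes at or above 1 TPM in 3 or more libraries were fitted as log2(TPM + 1) with limma 3.58.1 (R 4.3.3), with trended variance, 1 mean per group and all 15 libraries. Tests are two-sided, and p-values were adjusted by Benjamini-Hochberg over all genes within each comparison. A gene passed at an adjusted p under 0.05. The steps were tested on simulated data. Genes named with values in every library were SREBF1, SREBF2, INSIG1 and SCAP, then in each comparison with Parental the 5 passing members of smallest adjusted p and every member at least 2-fold apart. Other members with such values were picked after their values were seen. The further lipid genes named are the 3 of smallest adjusted p in each direction. The members and lists were chosen with earlier results of these data known. Positions and neighbouring genes came from GENCODE release 29, and promoters from RefSeq on GRCh38.p14. TPM are shares of a library, so a rise of abundant transcripts lowers the rest, and neither a fit nor a scaling of TPM separates the share from the amount per cell. Alternatives tried were the pseudocount, the filter, 2 scalings, the libraries in the fit, a replicate block and each library left out.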

Additional observations from a re-analysis of the deposited data

Results flagged for a closer look

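Some members passed against Parental in opposite directions in 2 edited lines, and the difference between those lines is given here as log2 difference ± SE of the fit. Choosing members by opposite calls against the same Parental libraries fixes that these differences are wide, so they are a description and no further test is read from them. IDH1R132H held most of the higher sides. MVD differed from IDH1R132H by -0.70 ± 0.075 in IDH2R140Q, -1.37 ± 0.075 in IDH2R140W and -0.81 ± 0.075 in IDH2R172K. IDI1 differed from it by -0.75 ± 0.085, -1.10 ± 0.085 and -0.57 ± 0.085 in the same lines. SQLE differed from IDH1R132H by -1.02 ± 0.059 in IDH2R140W and -1.06 ± 0.059 in IDH2R172K.

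ACAT2 and MSMO1 were split between IDH2R140W and 2 other lines. ACAT2 in IDH2R140W differed by -1.03 ± 0.075 from IDH1R132H and by -1.04 ± 0.075 from IDH2R140Q. MSMO1 in IDH2R140W differed by -0.93 ± 0.11 from IDH1R132H and by -1.15 ± 0.11 from IDH2R140Q. The lysosomal carrier NPC2 was the member that ran the other way, 0.63 ± 0.094 in IDH2R140W against IDH1R132H. ACACB differed by 1.57 ± 0.26 in IDH2R172K against IDH2R140W, the widest gap of these members, at levels of 11.1 to 16.0 TPM in IDH2R172K and 2.30 to 4.92 TPM in IDH2R140W.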

How the results depend on the processing

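Direction was compared only where a member passed in the main fit or under the alternative. Of 2008 values of single members against Parental under alternatives, 1870 kept their side of the threshold, 94 lost the call, 42 gained it and 2 passed the other way. Those 2 came with median-ratio scaling, FDFT1 in IDH1R132H at -0.14 (adjusted p = 0.0404) and SQLE in IDH2R140Q at -0.24 (0.0358), and the cause was not tested. Between edited lines, SOAT1 in IDH2R172K against IDH2R140W passed at -0.32 (adjusted p = 0.046) without IDH2R140W replicate 3 and Parental replicate 2, against 0.01 with them, and other single libraries left out gave up to 0.26.

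Scaling moved the split between higher and lower members most. In IDH1R132H, 11 higher and 6 lower became 5 and 12 with median-ratio scaling and 7 and 11 with quantile normalisation. Shares of all genes moved too, from 30.1% higher and 13.7% lower to 22.8% and 20.6%, and to 22% and 21.3%. Members higher in IDH2R140W numbered 2 with median-ratio scaling and 1 with the compared libraries only, against 4. In IDH2R172K they numbered 3 under each of these and under quantile normalisation, against 6. Of all genes, 13.1% were higher in IDH2R140W with median ratios, against 13.3% with TPM as deposited. In IDH2R172K 19.7% of all genes were higher with median ratios and 19.3% with quantile normalisation, against 25.5%. The 1 member higher in IDH2R140W than in IDH2R140Q became 3 with either scaling and 2 without IDH2R140W replicate 3 and Parental replicate 2. The 1 higher in IDH2R172K than in IDH2R140Q became 2 with either scaling or with the compared libraries only. For the scaled fits between edited lines and the fits with fewer libraries, shares of all genes called were not computed. Fitting the compared libraries alone, which leaves fewer samples, also lost these calls, with their adjusted p: FDPS in IDH2R140W (0.0629), MSMO1 in IDH2R140W (0.0976), SCD in IDH2R140W (0.0663), SREBF1 in IDH2R140W (0.0672), STARD4 in IDH2R140W (0.0676), FASN in IDH2R140Q (0.0671), NPC2 in IDH1R132H (0.0573). It further lost IDI1 and SREBF2 in IDH1R132H (0.0779 and 0.0708) and FDFT1 in IDH2R140Q (0.103). In IDH2R140W it lost PMVK, SCAP, NPC2 and ACACB (0.0844, 0.134, 0.181 and 0.147). In IDH2R172K it lost PMVK, TM7SF2, ACACB, FADS2 and ELOVL6 (0.0595, 0.0759, 0.0668, 0.106 and 0.0504).

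Leaving out 1 library at a time gave 9 to 10 higher and 6 to 8 lower members in IDH1R132H, 8 to 10 and 8 to 11 in IDH2R140Q, 2 to 4 and 18 to 23 in IDH2R140W, and 4 to 6 and 15 to 17 in IDH2R172K. The lowest count of 2 came without IDH2R140W replicate 2. Shares of all genes called were not computed for the fits with 1 library left out. Between edited lines it gave 1 to 2 higher and 20 to 24 lower in IDH2R140W against IDH2R140Q, 4 and 14 to 21 against IDH1R132H, 1 and 12 to 14 in IDH2R172K against IDH2R140Q, and 28 to 31 members differing over the 4 lines. Replicate numbers did not pair the libraries: deviations of same-numbered libraries correlated at -0.29 to 0.22 (median -0.0012, 1 of 30 pairs over 0.1). Across numbers, Parental replicate 2 and IDH2R140W replicate 3, which stood apart by ribosomal share, deviated alike (r = 0.50). Parental replicate 1 and IDH2R140W replicate 3 correlated at -0.37. With a replicate block, members lower in IDH2R140Q numbered 9 against 10 and no other count of members called changed.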
